A study of Mus musculus with 8 samples.

Results

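The genes of the N6-methyladenosine (m6A) machinery were examined in E14.5 ovaries lacking BMPR1A in their germ cells and in control ovaries. The set comprised 9 genes chosen by symbol: the writers *Mettl3*, *Mettl14* and *Wtap*, the readers *Ythdf1*, *Ythdf2*, *Ythdf3* and *Ythdc1*, and the erasers *Alkbh5* and *Fto*. The meiotic reader *Ythdc2* was kept apart from this set. All 9 symbols were present among the 25239 in the count files, and all 9 passed the filter on low counts, which left 14249 genes for testing. Control embryos were *Bmpr1a* fl/fl, and mutant embryos, named *Bmpr1a*-cKO, were *Bmpr1a* fl/fl; *Oct4-Cre* Cre/WT. Both genotypes were female, on a C57BL/6 background, and came from dams given 1 mg 4-hydroxytamoxifen and 0.5 mg progesterone once at 9.5 dpc, once at 10.5 dpc and once at 11.5 dpc. The control embryos carried no Cre. Controls were littermates of the mutants. Each of the 4 libraries per genotype was made from the ovaries of 2 embryos, so that 8 embryos per genotype from 6 litters were used, and the litter of each library is not given. Whole ovaries were sequenced, whereas the tamoxifen-inducible Cre acts in the *Oct4*-expressing germ cells and the somatic cells keep *Bmpr1a*.

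m6A is a methyl mark on adenosines within mRNA. METTL3 carries the catalytic site and METTL14 holds the RNA in the core writer complex, which WTAP brings to nuclear speckles. Proteins with a YTH domain bind the methylated base: the YTHDF proteins act in the cytoplasm, where YTHDF2 promotes mRNA decay, and YTHDC1 acts in the nucleus on splicing and export. FTO and ALKBH5 are dioxygenases that remove the mark. In mice the pathway is known for roles in germ cells, including the fertility defects of *Alkbh5*, *Mettl3* and *Ythdf2* mutants. YTHDC2, another protein with a YTH domain, has functions in meiosis.

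Total counts ran from 8562961 to 15365052 per library, and no library repeated another of the same genotype within sampling noise. Expression is given as CPM, the count of a gene relative to the library total after TMM scaling in edgeR. *Bmpr1a* itself had 199.5 to 236.5 CPM in control and 185 to 209 CPM in mutant libraries, a Log2FC of -0.16 (FDR = 0.0692 by edgeR); as the soma keeps the gene, this does not check the labels. Markers that define the germ cells and the ovarian soma were present in every library. The 7 germ cell markers found summed to 679 to 925 CPM in control and 728 to 1109 CPM in mutant libraries, with *Ddx4*, the germ cell RNA helicase, at 142 CPM and 153 CPM on average. The 8 pregranulosa markers summed to 1375 to 1650 CPM in control and 1165 to 1387 CPM in mutant libraries.

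Of the 9 m6A genes, only *Alkbh5* differed between genotypes at an FDR below 0.05 by edgeR, and it was lower in *Bmpr1a*-cKO ovaries. Among all genes tested, 29.8% passed this FDR, 12.5% as lower and 17.3% as higher. None of the 9 was a DEG, defined by an absolute Log2FC above 0.5 together with that FDR, which 10.2% of all genes were; the count was 0 as well by limma-voom, DESeq2 and all other alternatives tried. At an unadjusted p below 0.05 the number called was also 1 of 9, against 39.8% of all genes. *Alkbh5* was likewise the only member whose libraries did not overlap between genotypes, as was the case for 27.9% of all genes. The median absolute Log2FC was 0.05 over the 9 genes and 0.17 over all genes. For all 9, the 95% interval of the Log2FC lay within 0.5 of zero, as it did for 64.2% of all genes. These intervals are for RNA of the whole ovary and do not bound a change in the germ cells alone. These counts describe a short list and were not tested against other lists.

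**Figure D1:**
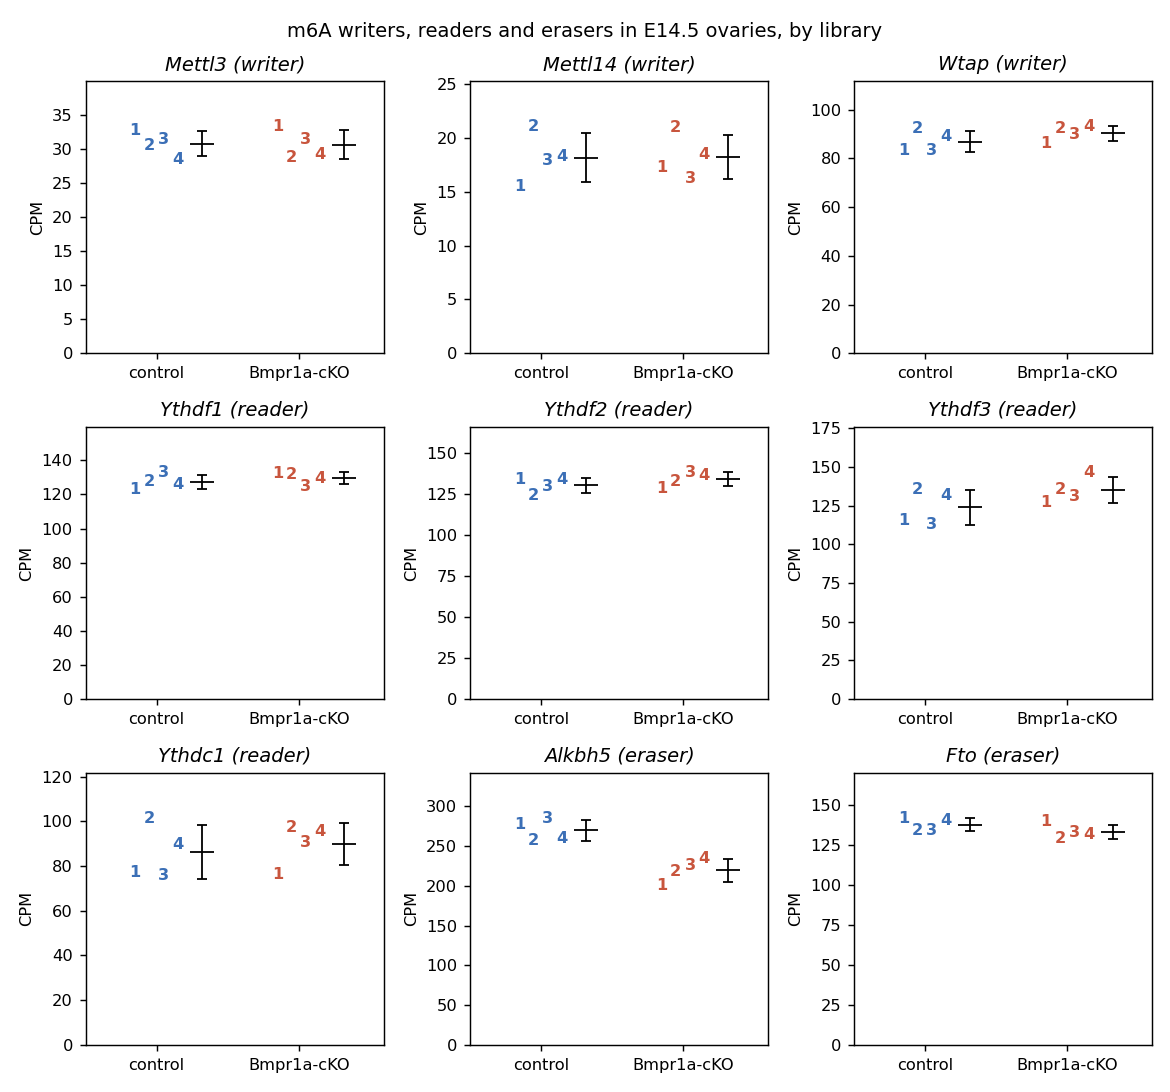
CPM (vertical axes, from 0) of each m6A gene in each library; digits are library numbers, blue for control and red for *Bmpr1a*-cKO, and black bars give the mean and SD of 4 libraries. In the panel for *Alkbh5* the mutant libraries sit at 200 to 235 CPM, below all control libraries at 257 to 285 CPM, and in the other 8 panels the genotypes overlap.

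The regions just before the RefSeq start sites of the erasers are shown, as *Alkbh5* was the gene that fell and *Fto* has the same role. They are the 250 bases upstream of the RefSeq start on GRCm38.p6 (mm10), both on the plus strand, at chr11:60537433-60537682 for *Alkbh5* and chr8:91313275-91313524 for *Fto*. For *Fto*, the RefSeq and the first GENCODE start coincide. For *Alkbh5* they differ: the RefSeq start is at 60537683, whereas GENCODE transcripts start at 60536381 and 60537978. The window thus lies in an intron of the first of these transcripts and upstream of the other. No base of either window is in an annotated GENCODE exon. Capitals mark GTCT or its complement AGAC, the short core bound by SMAD proteins, the transcription factors downstream of BMP receptors.
Alkbh5: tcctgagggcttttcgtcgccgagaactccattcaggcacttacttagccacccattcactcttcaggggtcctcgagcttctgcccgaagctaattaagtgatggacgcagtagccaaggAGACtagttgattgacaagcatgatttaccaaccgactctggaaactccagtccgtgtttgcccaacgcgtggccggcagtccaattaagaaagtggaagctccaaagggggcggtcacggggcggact
Fto: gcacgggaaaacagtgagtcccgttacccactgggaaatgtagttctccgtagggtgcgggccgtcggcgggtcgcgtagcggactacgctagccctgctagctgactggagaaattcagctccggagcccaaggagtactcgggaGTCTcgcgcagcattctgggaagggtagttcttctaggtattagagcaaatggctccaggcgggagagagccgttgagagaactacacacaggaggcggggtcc
Each window held the 4 letters once on either strand, as 82.9% of 32851 windows of this kind did at least once. GGCGCC, a GC-rich motif of BMP-responsive elements whose letters cannot overlap those of GTCT, was in neither window and in 9.59% of all windows. The windows had a GC content of 54.0% and 59.2%. A match is a description of the letters and not evidence of binding.

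*Alkbh5* (ENSMUSG00000042650.3) lies on chromosome 11 from 60536381 to 60558512 with no other annotated gene overlapping it. It encodes the nuclear m6A demethylase. Its level was 277, 257, 285 and 260 CPM in control libraries 1 to 4 and 200, 218, 225 and 235 CPM in *Bmpr1a*-cKO libraries 1 to 4. Every mutant library was below every control library, with library 1 the lowest of the mutants. The means were 270 ± 13.5 CPM and 219 ± 14.7 CPM (SD, n = 4 each), a Log2FC of -0.30 with a standard error of 0.0629 and FDR = 0.00239 by edgeR. In linear terms the mutant level was 0.814 of the control level, with a 95% interval of 0.742 to 0.893, or 18.6% lower. These values rest on 13429 reads in the control and 10193 in the mutant libraries. In whole-ovary RNA, a smaller share of cells that express a gene and less RNA per cell cannot be told apart.

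Genes listed as markers of several cell types also differed between the genotypes in the same libraries. Of the 8 pregranulosa markers, 7 were lower in mutant ovaries at an FDR below 0.05 by edgeR, with a median Log2FC over the list of -0.33 and none at 0. They include *Foxl2*, a transcription factor of granulosa cells, at 118 CPM against 79.4 CPM, and *Rspo1*, a secreted activator of WNT signalling, at 64.1 CPM against 45.9 CPM. Among all genes tested, 12.5% were lower and 17.3% higher at this FDR. Of 5 Sertoli markers, 2 were lower (15.6 to 17.2 CPM summed in control, 11.5 to 12.6 CPM in mutants). That list holds 2 markers under 1 CPM. Of 4 steroidogenic markers tested, 1 was lower (42.2 to 48.4 CPM against 25.0 to 43.6 CPM). It was *Hsd3b1*, at 35.4 CPM against 23.1 CPM. Of 5 mesonephros markers, 1 was lower (130 to 160 CPM against 101 to 121 CPM). It was *Emx2*, which makes up most of that sum, at 119 CPM against 99.1 CPM. *Pax2*, *Pax8*, *Lhx1* and *Cdh16* were not called. Germ cell markers split, with 2 of 7 higher and 1 lower, and 3 of 5 macrophage markers were higher (23.8 to 29.5 CPM against 31.6 to 40.3 CPM). Of the 6 stromal, 5 endothelial and 3 tested erythroid markers, 0 passed by edgeR, limma-voom or DESeq2 or at an unadjusted p below 0.05 (1730 to 2251 against 1713 to 2134, 258 to 303 against 243 to 280.1, and 67.7 to 172 against 93.9 to 125 CPM summed); the globin genes *Hbb-bt* and *Hba-a1* are listed at 0 in every library. With libraries scaled to the pregranulosa markers, an alternative added after their fall was seen, the Log2FC of *Alkbh5* was 0.065 (FDR = 0.583 by edgeR), while the median over all genes moved to 0.355. *Alkbh5* stood at -0.291 from that median, against -0.293 in the reported fit. A change of scaling moves all genes by about the same amount, so this distance hardly depends on the scaling. It therefore shows nothing about cell composition. The part of cell composition in the fall of *Alkbh5* was not tested.

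*Fto*, the other eraser and also known from the association of its human counterpart with body mass, spans 91313525 to 91668439 of chromosome 8. Its level was 142, 134, 134 and 140 CPM in control libraries 1 to 4, and 139, 129, 133 and 131 CPM in the mutants. The genotypes overlapped, and *Fto* had the smallest spread of the 9 genes in control ovaries, an SD of 2.96% of the mean. Its Log2FC was -0.05 (95% interval -0.16 to 0.07, FDR = 0.557 by edgeR). Several predicted genes lie within *Fto*, sharing 448 of its 13031 exon bases.

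Within a library, the ratio of *Fto* to *Alkbh5* counts does not depend on how libraries are scaled. The ratio was 0.512, 0.520, 0.470 and 0.539 in control and 0.697, 0.592, 0.591 and 0.559 in *Bmpr1a*-cKO libraries. All mutant ratios were above all control ratios, and the mean log2 ratio was 0.25 higher (exact permutation test, two-sided, p = 0.0286, the lowest value possible among 70 arrangements). Adjusted over the 4 ratios examined, p was 0.114, so the ratio did not pass after correction. Without control library 1, 2 or 3 the exact p was 0.0571.

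Among the writers, neither catalytic subunit nor adaptor differed detectably. *Mettl3*, on chromosome 14 from 52294841 to 52305128, had 32.7, 30.5, 31.4 and 28.5 CPM in control and 33.3, 28.7, 31.3 and 29.1 CPM in mutant libraries. The samples interleaved, and the Log2FC was -0.01 (95% interval -0.17 to 0.15, FDR = 0.931 by edgeR). *Tox4* overlaps *Mettl3* on the opposite strand, over 933 exon bases. The libraries were strand-specific, but the strand setting used in counting is not stated, so reads of the pair may not be separated.

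*Mettl14*, on chromosome 3 from 123368297 to 123386108, was the least abundant of the 9, with 145 to 290 reads per library. It had 15.5, 21.1, 17.9 and 18.3 CPM in control and 17.3, 21.0, 16.2 and 18.5 CPM in *Bmpr1a*-cKO libraries. Library 2 was the highest in both genotypes. With a Log2FC of 0.02 (95% interval -0.21 to 0.24, FDR = 0.934 by edgeR), its interval was the widest of the set. The SD was 12.7% of the mean in control libraries, where counting alone would give 6.64%. The ratio of *Mettl14* to *Mettl3* was 0.594 ± 0.0955 in control and 0.601 ± 0.102 in mutant libraries (SD, n = 4 each; exact permutation test, two-sided, p = 0.914).

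*Wtap*, on chromosome 17 from 12966796 to 12994169, had 83.3, 92.0, 83.4 and 88.9 CPM in control and 86.0, 92.1, 89.9 and 93.1 CPM in mutant libraries. The ranges overlapped over most of their length. Its Log2FC was 0.06 (95% interval -0.07 to 0.18, FDR = 0.518 by edgeR), so a rise above 1.13-fold in whole-ovary RNA lay outside the interval. A change in the germ cells alone was not measured.

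The 3 cytoplasmic readers are paralogues with near-equal counts. *Ythdf1*, on chromosome 2 from 180904377 to 180920949, had 123, 127.5, 133 and 126 CPM in control and 132, 131, 124.5 and 129 CPM in mutant libraries, with a Log2FC of 0.02 (95% interval -0.09 to 0.14, FDR = 0.792 by edgeR). *Ythdf2*, on chromosome 4 from 132184912 to 132212303, had 134, 124, 129.7 and 134 CPM in control and 129, 133, 138 and 136.5 CPM in mutant libraries, with a Log2FC of 0.04 (95% interval -0.08 to 0.16, FDR = 0.620 by edgeR). Both varied little, with an SD of 2.72% to 3.48% of the mean in either genotype. *Ythdf3*, on chromosome 3 from 16183212 to 16217037, was more variable, at 115, 136, 113 and 132 CPM in control and 127, 135, 131 and 147 CPM in mutant libraries. Its Log2FC of 0.12 was the highest of the set (95% interval -0.03 to 0.28, FDR = 0.211 by edgeR). The highest library was mutant library 4 and the lowest was control library 3, but control libraries 2 and 4 exceeded mutant libraries 1 and 3. Read as ratios to *Ythdf1*, *Ythdf2* stood at 1.02 ± 0.0586 and 1.04 ± 0.0600 (p = 0.743) and *Ythdf3* at 0.975 ± 0.100 and 1.04 ± 0.0721 (p = 0.343) in control and mutant libraries (SD, n = 4 each; exact permutation tests, two-sided). After adjustment over the 4 ratios p was 0.914 and 0.686.

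*Ythdc1*, the nuclear reader, spans 86804221 to 86836659 of chromosome 5. Its level was 77.2, 101.5, 75.9 and 89.9 CPM in control and 76.4, 97.2, 90.8 and 95.5 CPM in *Bmpr1a*-cKO libraries. Control libraries 1 and 3 and mutant library 1 were low and the other 5 high, so that the spread within each genotype exceeded the difference between them. The Log2FC was 0.07 (95% interval -0.13 to 0.27, FDR = 0.640 by edgeR). Its SD of 14.0% of the mean in control was the largest of the 9, against 3.04% from counting alone. *Gm43055* overlaps *Ythdc1* on the same strand, over 631 exon bases, and reads may have been divided between them.

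**Figure D2:**
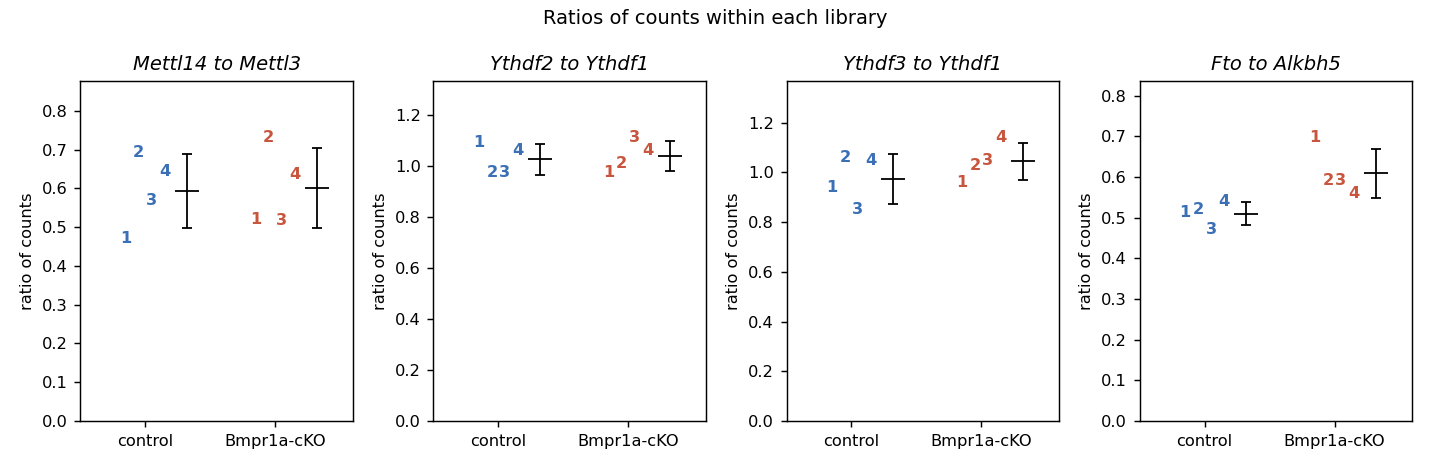
Ratio of raw counts (vertical axes, from 0) for 4 pairs with a shared role, per library; digits are library numbers and black bars the mean and SD of 4 libraries. The ratio of *Fto* to *Alkbh5* is 0.470 to 0.539 for control but 0.559 to 0.697 for *Bmpr1a*-cKO, and the genotypes overlap in the other panels.

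Levels were compared between genes as RPKM, that is CPM per kilobase of annotated exon of each gene, which depends on how many of those exons are used. In control ovaries *Alkbh5* was the most abundant at 45.0 ± 2.25 RPKM, followed by *Ythdf1* at 38.4 ± 1.26, *Ythdf2* at 28.5 ± 0.992, *Ythdf3* at 23.1 ± 2.13 and *Wtap* at 13.9 ± 0.689 RPKM (SD, n = 4). Below these came *Fto* at 10.5 ± 0.312, *Ythdc1* at 6.31 ± 0.882, *Mettl3* at 6.06 ± 0.352 and *Mettl14* at 2.45 ± 0.310 RPKM. Only the neighbours *Ythdc1* and *Mettl3* overlapped between libraries. In *Bmpr1a*-cKO ovaries the order was the same except at the top. There *Alkbh5*, at 36.6 ± 2.46 RPKM, came second to *Ythdf1*, at 39.0 ± 1.06 RPKM, and their libraries overlapped. The order depends on the annotated length. By CPM, *Fto* (13031 exon bases) stood above *Ythdf1* (3316 exon bases) in control ovaries, at 137 against 127 CPM on average.

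**Figure D3:**
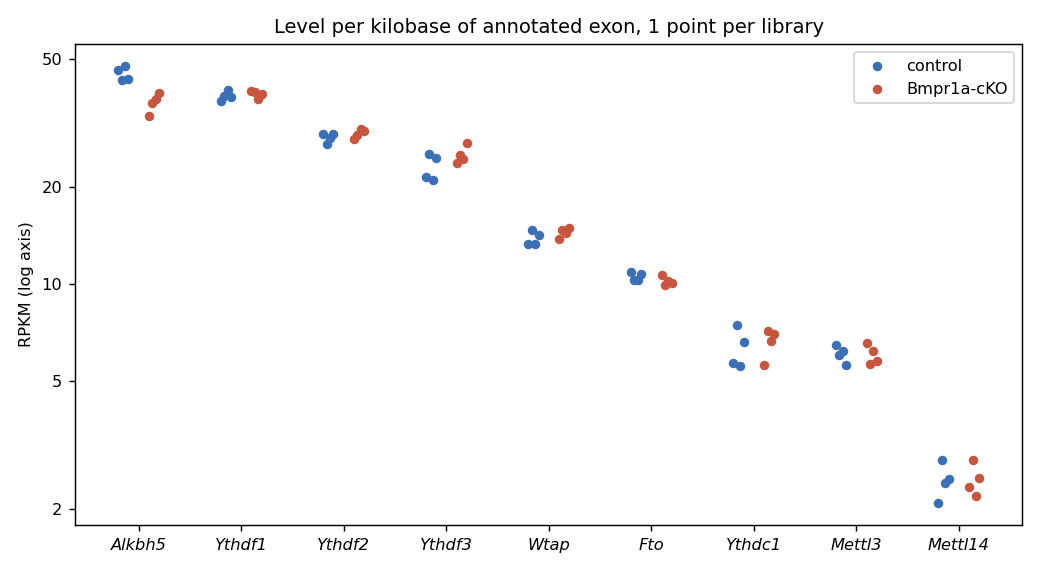
RPKM (log axis) of the 9 genes in the order of their control mean, with 1 point per library (blue, control; red, *Bmpr1a*-cKO). *Alkbh5* leads at 43.0 to 47.6 RPKM in control and falls to 33.4 to 39.2 RPKM in mutant libraries, level with *Ythdf1*; *Mettl14* is lowest at 2.08 to 2.84 RPKM.

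The genes whose pattern over the 8 libraries was most like that of *Alkbh5*, by root mean square difference of centred log2 CPM, were *Timm10b* (0.0302), a mitochondrial import chaperone, *Hmox2* (0.0314), a haem oxygenase, and *Serf2* (0.0359). Their Log2FC was -0.33, -0.28 and -0.25. The match included the difference between genotypes, so values near that of *Alkbh5* follow from the selection.

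A wider list held 31 genes of the pathway or linked to its proteins. Of these, 8 had an FDR below 0.05 by edgeR (25.8%, against 29.8% of all genes), with 6 higher and 2 lower in *Bmpr1a*-cKO ovaries. In a mixed group of other readers and factors that act with them, such as *Meioc* and *Srsf3*, 6 of 14 passed. Among writer partners 1 of 11 passed, and of the genes of the S-adenosylmethionine cycle 1 of 3. Of the 3 decay partners of YTHDF2, 0 passed by edgeR, limma-voom or DESeq2, and 1 had an unadjusted p below 0.05. The difference between these groups was not tested.

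*Ythdc2*, the meiotic reader and RNA helicase, and *Meioc*, its partner protein in germ cells, both fell. *Ythdc2* had 56.8, 53.1, 61.2 and 61.9 CPM in control and 38.75, 40.9, 43.2 and 42.4 CPM in mutant libraries, a Log2FC of -0.49 (FDR = 9.77e-05 by edgeR) that lies at the DEG threshold: it met both criteria in 12 of 21 alternatives, DESeq2 among them, but not in the reported fit. *Meioc* had 114, 111, 138 and 124 CPM in control and 20.6, 28.2, 43.4 and 53.7 CPM in mutant libraries, a Log2FC of -1.72 (FDR = 1.08e-05 by edgeR). Neither gene overlapped between genotypes. *Rbm46*, which encodes another protein of this complex, had a Log2FC of -0.31 (FDR = 0.0630 by edgeR), with mutant library 4 within the control range. Under scaling to pregranulosa markers the Log2FC of *Ythdc2* was -0.13 (FDR = 0.273 by edgeR), beside a median of 0.355 over all genes.

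*Igf2bp1* and *Igf2bp3*, paralogues that bind and stabilise methylated mRNA, both rose. *Igf2bp1* had 101, 114, 106 and 101 CPM in control and 173, 190.3, 200 and 185 CPM in mutant libraries, a Log2FC of 0.83 (FDR = 3.18e-07 by edgeR). *Igf2bp3* rose from 86.8 ± 3.96 to 111 ± 5.87 CPM (SD, n = 4 each), a Log2FC of 0.36 (FDR = 0.000370 by edgeR), although *Malsu1* and *Gm18010* overlap it on the opposite strand, over 1529 of its exon bases. *Igf2bp2* went from 155 ± 2.99 to 145 ± 8.99 CPM, a Log2FC of -0.10 (FDR = 0.235 by edgeR). *Igf2bp1* and *Meioc* were the DEGs of the wider list in the reported fit, and both met these criteria in each of 21 alternatives.

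The remaining calls were smaller. *Srsf3*, a splicing and export factor that works with YTHDC1, rose from 190.1 ± 17.2 to 251.5 ± 29.3 CPM (Log2FC of 0.41, FDR = 0.00197 by edgeR), and its libraries overlapped. *Hnrnpc*, a nuclear RNA-binding protein whose sites open near m6A, rose from 330.3 ± 18.6 to 395 ± 18.2 CPM (Log2FC of 0.26, FDR = 0.00455 by edgeR). *Mat2a*, which makes the methyl donor S-adenosylmethionine, rose from 167 ± 7.03 to 194.5 ± 9.29 CPM (Log2FC of 0.225, FDR = 0.00841 by edgeR). *Particl* overlaps *Mat2a* on the opposite strand, over 508 of its exon bases. *Mettl16*, a methyltransferase that acts on *Mat2a* mRNA and U6 RNA, rose from 46.45 ± 1.07 to 54.75 ± 4.25 CPM (SD, n = 4 each; Log2FC of 0.24, FDR = 0.0152 by edgeR). The call of *Mettl16* did not hold when mutant library 2 (FDR = 0.0690) or mutant library 4 (FDR = 0.0587 by edgeR) was left out, or with library size alone as the scaling (FDR = 0.0551), and it held in 17 of 21 alternatives. With libraries scaled to the germ cell markers, *Igf2bp3*, *Srsf3*, *Hnrnpc*, *Mat2a* and *Mettl16* kept a positive Log2FC, of 0.275, 0.31, 0.18, 0.14 and 0.15, but the FDR was 0.437 to 0.788 by edgeR, while *Meioc*, *Igf2bp1* and *Ythdc2* were called.

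Partners that join the core writers in one complex did not pass the test in either direction. *Virma*, its largest subunit, had a Log2FC of 0.04 (95% interval -0.08 to 0.16), *Rbm15* 0.12 (-0.04 to 0.29), *Rbm15b* 0.10 (-0.03 to 0.23) and *Cbll1* 0.11 (-0.08 to 0.30). *Zc3h13* went from 82.3 ± 3.86 to 74.9 ± 3.76 CPM (SD, n = 4 each) without overlap, a Log2FC of -0.14 that did not pass (FDR = 0.111 by edgeR). *Cnot1*, the scaffold of the deadenylase complex that YTHDF2 recruits, had a Log2FC of -0.03 (95% interval -0.15 to 0.09).

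**Figure D4:**
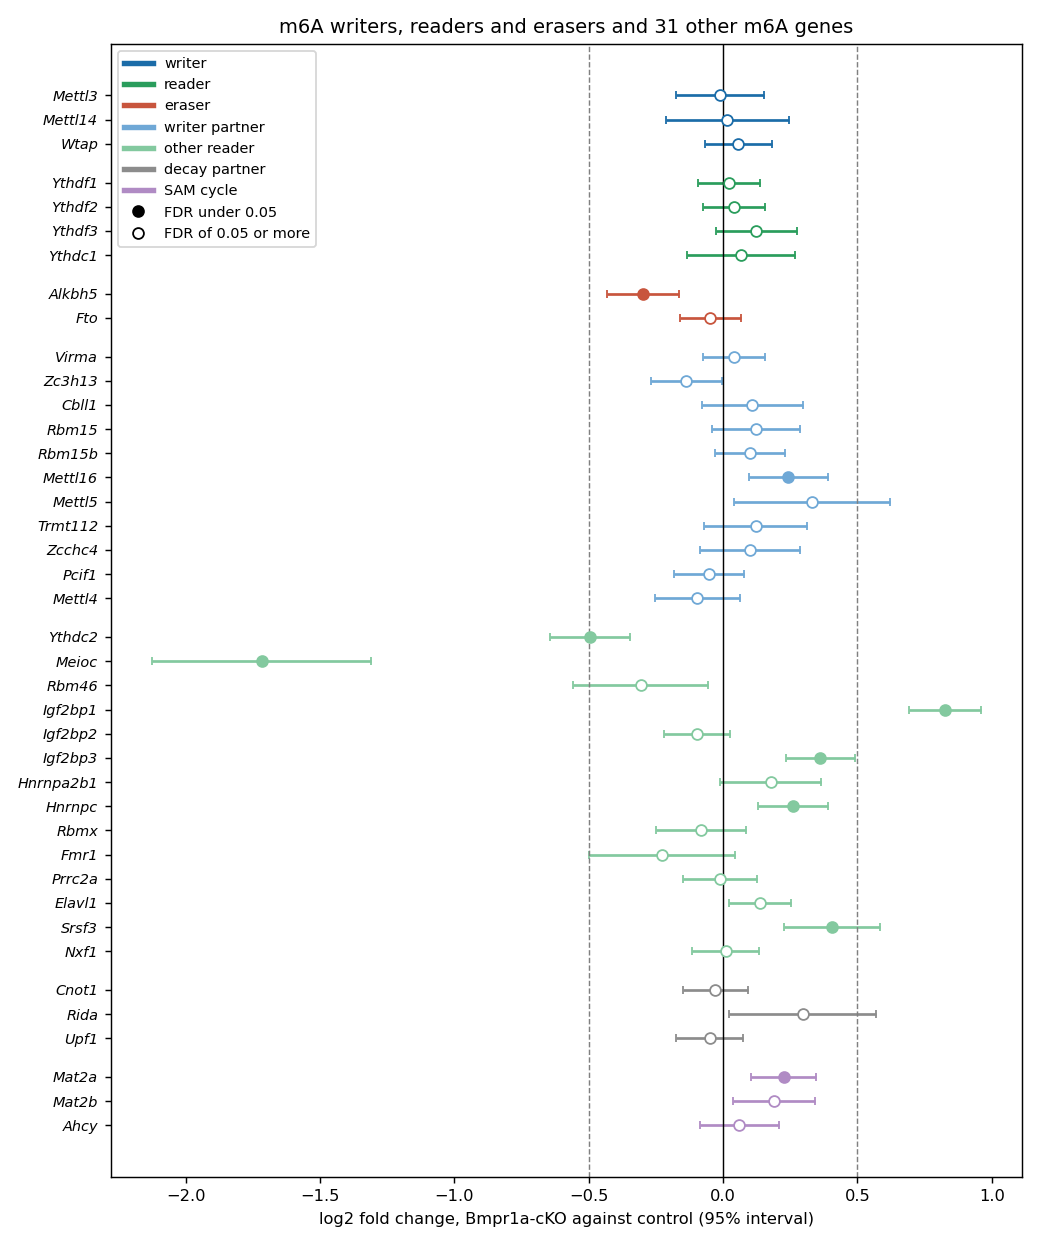
Log2FC of *Bmpr1a*-cKO against control (horizontal axis) with its 95% interval for the 9 m6A genes and the wider list; filled points have an FDR below 0.05 and dashed lines mark the DEG threshold of 0.5. Among the 9 genes at the top, the filled point is *Alkbh5* at -0.30, and *Meioc* at -1.72 and *Igf2bp1* at 0.83 lie furthest out below.

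*Alkbh5* was lower in *Bmpr1a*-cKO ovaries at an FDR below 0.05 in 19 of 21 alternatives, with a Log2FC of -0.337 to -0.255 when 1 library was left out. The exceptions were the scalings to cell type markers. With germ cell markers as the reference its Log2FC was -0.38, and its FDR was 0.276 by edgeR; those markers themselves ran from a Log2FC of -0.795 for *Mael* to 0.78 for *Dnd1*. The other 8 genes were not called in any alternative except scaling to pregranulosa markers, under which all 8 were higher, by a Log2FC of 0.31 to 0.49, beside the median of 0.355 over all genes.

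**Figure D5:**
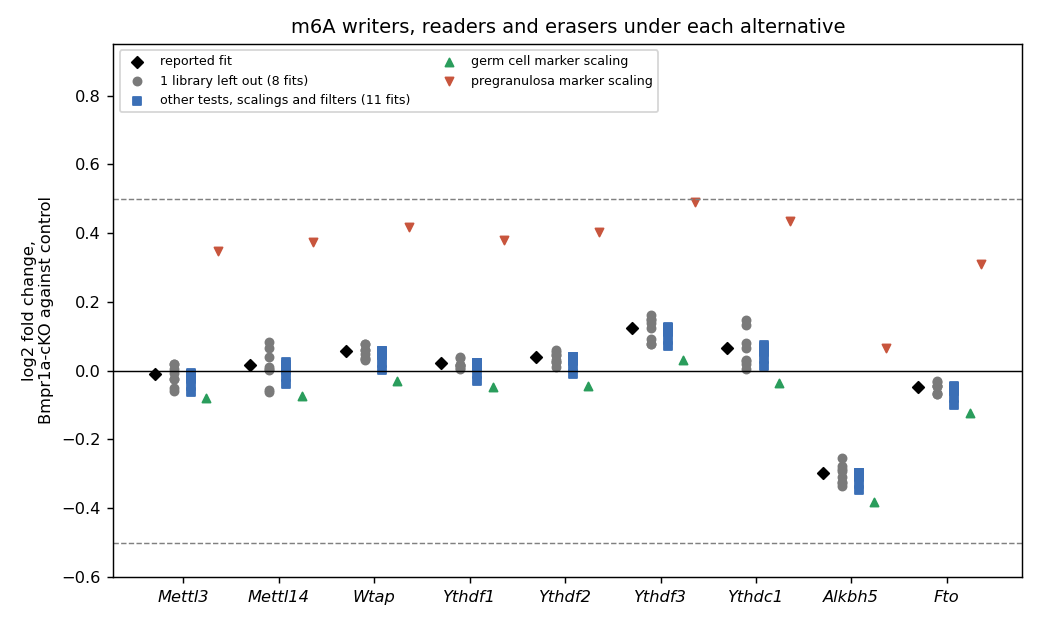
Log2FC (vertical axis) of each of the 9 genes in the reported fit (diamond), with 1 library left out (grey), under other tests, scalings and filters (blue squares) and under scaling to germ cell (green) or pregranulosa markers (red). *Alkbh5* lies between -0.382 and -0.255 in all but the pregranulosa scaling, which puts it at 0.065 and moves the other genes up to 0.31 to 0.49.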

How the data were processed

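Strand-specific, paired-end RNA-Seq of 4 control and 4 *Bmpr1a*-cKO ovary pools was analysed. The authors trimmed reads with Trimmomatic 0.39, mapped them to mm10 with STAR 2.5.2 and deposited raw counts per gene symbol; annotation and strand setting are not given in the sources used here. The authors also deposited a signal table (CPM for 14244 genes), used only as a gene filter. In R 4.3.3, genes passing filterByExpr were scaled by TMM and tested for genotype with the quasi-likelihood test of edgeR 4.0.16, two-sided, with FDR over all 14249 genes. Intervals are 95%. The procedure was tested on simulated data. The members, gene lists and tests were chosen with earlier results of these data known. Named genes are the 9 members, the DEGs and up to 8 genes of lowest FDR in the wider list, and the 3 genes most like the member of lowest FDR; others were named after their values were seen. Positions and exon lengths come from GENCODE vM21, upstream sequences from RefSeq (GRCm38.p6). Alternatives were the edgeR likelihood ratio test, limma-voom (limma 3.58.1), DESeq2 1.42.0, other scalings and filters, removal of *Rn45s*, the replicate number as a block and each library left out. Replicates are separate pools, so p-values include animals and library preparation.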

Additional observations from a re-analysis of the deposited data

Results flagged for a closer look

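Among 42 groups of 4 libraries examined for a library far from the rest, 1 was found, where chance gives about 1 in 20. *Mat2a* had 177 CPM in control library 2 against 163 to 164 CPM in the other control libraries.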

How the results depend on the processing

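The number of DEGs over all genes was 1449 (60.1% higher) and stayed within 1.5 times of this except with pregranulosa marker scaling, which gave 4124 (95.1% higher) and shifted the median Log2FC of all genes to 0.355; germ cell marker scaling gave 1050 (48.2% higher). These scalings also moved the number of called genes, from 1 to 0 (germ cell) and 8 (pregranulosa) of the 9 m6A genes, and from 8 to 3 and 28 of the wider list; the cause was not tested. In the other 19 alternatives *Alkbh5* was the 1 member called, as lower. Directions turned with pregranulosa scaling for *Mettl3* (0.35), *Fto* (0.31) and *Alkbh5* (0.065). Members close to 0 also changed sign without a call: with germ cell scaling *Mettl14* (-0.07), *Wtap* (-0.03), *Ythdf1* (-0.05), *Ythdf2* (-0.045) and *Ythdc1* (-0.04), and, in other alternatives, *Mettl3*, *Mettl14*, *Ythdf1* and *Ythdf2*, so no direction is given for these genes. The ratio of *Fto* to *Alkbh5* kept its direction, with a log2 difference of 0.188 (mutant library 1 removed) to 0.294 (mutant library 4 removed) over the fits with 1 library left out. Treating the replicate number as a block gave 1 called gene of the 9, 12 of the wider list and, for that ratio, 0.25 with an exact p of 0.125, the lowest that 4 pairs allow. Whether the numbers pair the libraries is not settled: no source ties a number to a litter, same-numbered deviations correlated at 0.20, 0.16, 0.11 and -0.09, and 2 of 4 control libraries correlated best with their own number. The depth limits *Mettl14* most, at 145 to 290 reads.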
